A study of Rattus norvegicus with 5 samples.

Results

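Chromosomes 10 and 12 of the rat were examined for acetylation of histone H4 at lysine 5 (H4K5Ac) in the dorsal striatum, in consecutive windows of 10 kb from the first base of each chromosome. They were chosen by the number of called H4K5Ac sites per length, which an earlier analysis of these same libraries found to be highest on them. Their level relative to other autosomes is therefore a description and carries no test. Chromosome 10 gave 11072 windows and chromosome 12 gave 4679, which together were 15751 of the 255823 windows of the 20 autosomes. The other 18 autosomes, with 240072 windows, served for comparison.

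The series asked how methamphetamine (METH), an addictive psychostimulant that releases dopamine, changes H4K5Ac along the genome, in animals that had or had not received the drug before. Chromatin was precipitated with an antibody against H4K5Ac and the recovered DNA was sequenced (ChIP-Seq), so that more sequenced tags in a window stand for more of the acetylated histone there. All animals were male Sprague Dawley rats of 330 to 370 g, injected with saline or METH for 2 weeks and then challenged 16 to 18 h after the last of these injections. Tissue was taken 2 h after the challenge. SS was pretreated with saline and challenged with saline (4 animals). SM was pretreated with saline and challenged with 5 mg/kg METH (3 animals). MS was pretreated with METH and challenged with saline (3 animals), and MM was pretreated with METH and challenged with 5 mg/kg METH (4 animals). Each group was sequenced as 1 pool of its animals. The single input library came from 4 samples without the antibody and was shared by the groups. A group thus had no replicate, a difference between groups cannot be told apart from one between libraries, and every interval below (95%) covers counting error only.

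Acetyl groups on the tail of histone H4 neutralise the charge of lysines, loosen the hold of the histone on DNA and recruit bromodomain proteins. H4K5Ac is found at promoters, over active genes and on newly deposited histones, and gene-rich stretches of a chromosome usually carry more of it than gene-poor ones. Chromosome 10 of the rat is a gene-dense chromosome. It holds Ppp1r1b, which encodes the dopamine- and cAMP-regulated phosphoprotein of striatal projection neurons, Grin2a, a subunit of the NMDA receptor, Per1, a component of the circadian clock, and Slc6a4, the serotonin transporter. Chromosome 12 holds Vgf, a neuropeptide precursor induced by neuronal activity, and Nptx2, a pentraxin that gathers AMPA receptors at synapses. These genes are named for orientation only, because the gene table at hand is of another genome build than the tag counts (rn4) and no gene was assigned to a window.

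The ChIP libraries held between 5860474 (MS) and 12625113 (SM) tags and the input library 17918908, or 22.4 to 48.3 ChIP tags and 68.3 input tags per autosomal window. A 10 kb window in a single library is therefore an imprecise value, and chromosomes and 1 Mb bins are precise. Input tags were themselves unevenly spread. Chromosome 12 had the most input tags per window of all autosomes (83.0) and chromosome 10 the next most (80.4), followed by chromosome 19 (77.5) and chromosome 8 (72.6), with chromosome 2 lowest (60.5).

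Without regard to input density within the chromosome, both chromosomes had a higher ratio of ChIP to input than any other autosome in each of the 4 libraries. At matched input this depended on the library and on the way of matching, more so for chromosome 12 than for chromosome 10. Tags were scaled to 1000000 per library (CPM). On chromosome 10 a window then held 4.79 CPM for SS, 5.01 for SM, 4.98 for MS and 4.97 for MM, against 4.49 in the input. Chromosome 12 held 4.88, 5.33, 5.12 and 5.15 CPM per window in SS, SM, MS and MM, against 4.63 in the input. On the other autosomes the same value lay between 3.74 and 3.75 in the ChIP libraries and was 3.76 in the input. The ChIP libraries thus exceeded the input on both chromosomes and not on the rest as a whole, and SS exceeded it least.

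Dividing each library by the input, and by the same quotient of the other autosomes, gave 1.071 for SS on chromosome 10 (1.067 to 1.075). SM had 1.124 (1.120 to 1.127), MS 1.117 (1.113 to 1.122) and MM 1.113 (1.109 to 1.117). For chromosome 12 the values were 1.058 for SS, 1.158 for SM, 1.113 for MS and 1.118 for MM. The mean was 1.11 ± 0.024 for chromosome 10 and 1.11 ± 0.041 for chromosome 12 (SD over 4 libraries, which differ in treatment). The other autosomes had means from 0.959 (chromosome 2) to 1.048 (chromosome 19), with chromosome 20 next at 1.046, and their SD was 0.030. Which of the 2 chromosomes was higher depended on the library, chromosome 10 leading in SS and MS and chromosome 12 in SM and MM. The intervals of chromosome 12 in MS (1.106 to 1.119) and MM (1.112 to 1.124) overlapped those of chromosome 10, so the order in these libraries is not settled.

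**Figure D1:**
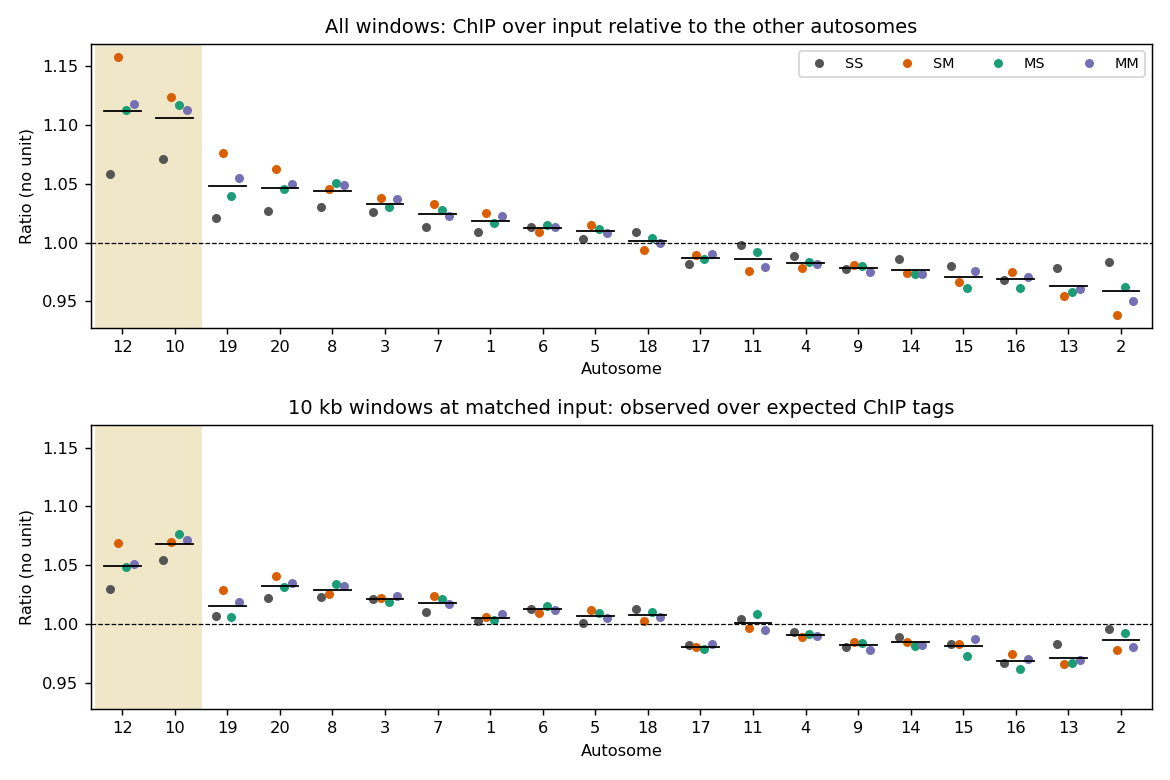
Level of H4K5Ac on each of the 20 autosomes, ordered by the mean of the top panel, with 1 point per ChIP library and a bar at the mean of the 4 libraries. The top panel gives ChIP over input relative to the 18 other autosomes and the bottom panel the quotient at matched input in 10 kb windows. Chromosomes 12 and 10, shaded, lie above every other autosome in both panels, and closer to them in the bottom one.

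Both chromosomes were also rich in windows dense in input tags. Of the windows of chromosome 10, 38.4% fell into the 5 densest of 20 classes of input (93 or more tags), as did 49.3% of those of chromosome 12 and 22.1% of those of the other autosomes. Each window was therefore compared with windows of the other autosomes in the same input class. At matched input, the observed tags were 1.054 times the expected ones for SS, 1.070 for SM, 1.076 for MS and 1.071 for MM on chromosome 10, a mean of 1.068 ± 0.009. On chromosome 12 the values were 1.030, 1.069, 1.048 and 1.051, a mean of 1.050 ± 0.016. The other autosomes had means from 0.968 (chromosome 16) to 1.032 (chromosome 20), with chromosome 8 next at 1.029. The excess of chromosome 10 thus went from 10.6% to 6.80%, and that of chromosome 12 from 11.2% to 4.95%. Averaged over the 4 libraries, chromosome 10 lay above the other autosomes in 20 of 20 input classes, by 1.019 to 1.122 times. Chromosome 12 did so in 18 of 20 classes, with values from 0.764 times in the class with least input to 1.197 times. Single libraries could differ from this mean. In the class with least input, SS held 0.639 CPM per window on chromosome 10 against 0.662 on the other autosomes. MS was also lower there, and SM and MM were higher.

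An input count of one 10 kb window is noisy, and matching on it can leave in the result a part of the true difference in density. When the input tags were split at random, with 1 part forming the classes and the other serving as reference, the mean was 1.057 on chromosome 10 and 1.036 on chromosome 12. Both means were above those of all other autosomes. In SS alone chromosome 12 then had 1.013, and 3 of the 18 other autosomes were higher. In windows of 100 kb, where counting noise is small, the means were 1.034 ± 0.007 and 1.009 ± 0.014. Chromosome 10 remained the highest autosome there in all 4 libraries (SS 1.025, SM 1.033, MS 1.040, MM 1.037), with chromosome 20 next at a mean of 1.020. Chromosome 12 lay within the other autosomes. It had 0.993 for SS, 1.026 for SM, 1.005 for MS and 1.011 for MM, and 8 of the 18 other autosomes had a higher mean. In windows of 1 Mb the means were 1.031 for chromosome 10 and 1.017 for chromosome 12, and in SM alone chromosome 10 was not the highest but stood behind chromosomes 12 and 20. The mean of chromosome 10 thus stayed above that of every other autosome at each window size. The mean of chromosome 12 stayed above 1, but was exceeded by 8 other autosomes in 100 kb windows and by 2 in 1 Mb windows.

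**Figure D2:**
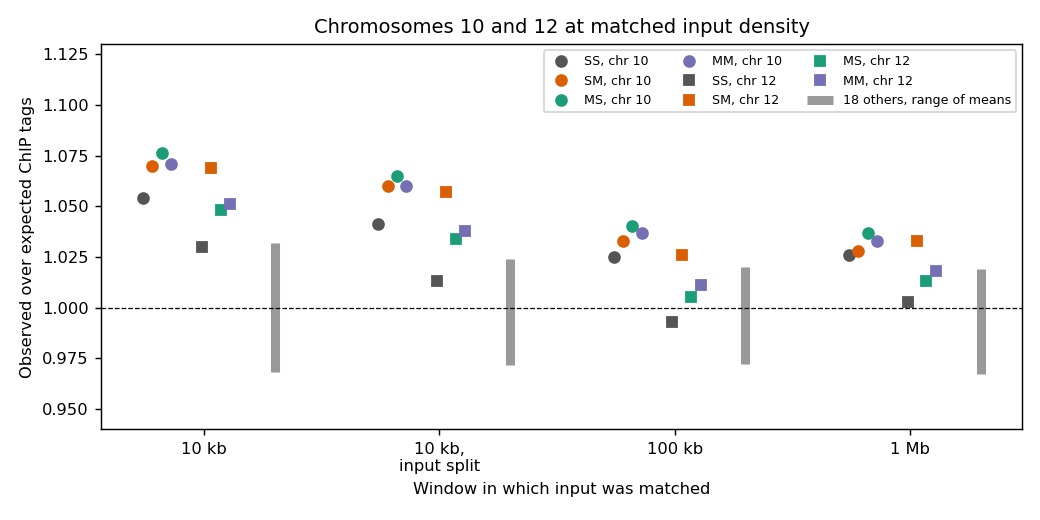
Observed over expected ChIP tags of chromosomes 10 (circles) and 12 (squares) at matched input density, 1 point per library, for 4 ways of matching. Grey bars span the means of the 18 other autosomes. Chromosome 10 stays above the grey bar at each window size, while the points of chromosome 12 run from 0.993 to 1.026 in 100 kb windows and overlap it.

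Both chromosomes held more windows of high signal than the other autosomes did. Windows with at least 20 input tags were counted, 10240 on chromosome 10 and 4121 on chromosome 12, and a window was called enriched at 1.5 times the input or more. On chromosome 10, 1367 windows were enriched in SS (13.4%, against 8.96% of the windows of all autosomes), 1435 in SM (14.0% against 7.76%), 1726 in MS (16.9% against 10.4%) and 1427 in MM (13.9% against 8.36%). On chromosome 12, SS had 486 enriched windows (11.8%), SM 614 (14.9%), MS 633 (15.4%) and MM 559 (13.6%). Averaged over the libraries, the share was 14.5% ± 1.6 and 13.9% ± 1.6, and the next autosome, chromosome 20, reached 11.1%. When libraries were scaled by the windows with less input than the median, the shares were 21.6% and 21.7%, and the next autosome was chromosome 19 (16.8%). Windows of the other autosomes in the same 20 input classes would have given 10.2% on chromosome 10 and 11.4% on chromosome 12, so part of the difference went with input density, and the counting noise of the input enters these values too. MS had the highest shares of the 4 libraries on chromosome 10, on chromosome 12 and on the other autosomes (10.01%). MS also had the fewest tags, and windows at 1/1.5 of the input or less were most frequent in it too. They made up 16.1% of chromosome 10, 15.3% of chromosome 12 and 23.5% of the other autosomes. Its values were thus more widely spread in both directions. With the other libraries thinned to the tags of MS, the enriched share averaged over the libraries was 15.1% on chromosome 10 and 14.7% on chromosome 12. At full depth it was 14.5% and 13.9%. The part of depth in the single libraries was not tested.

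The whole distribution was shifted. The median window stood at 0.991 times the input for SS, 1.022 for SM, 1.010 for MS and 1.022 for MM on chromosome 10, at 0.978, 1.082, 1.019 and 1.042 on chromosome 12, and between 0.901 and 0.927 on the other autosomes. For the mean of the 4 libraries, the window at the 95th percentile lay at 1.798 on chromosome 10, 1.78 on chromosome 12 and 1.59 elsewhere, and 242 windows (2.36%) and 112 windows (2.72%) reached 2 or more, against 1.25% of all autosomal windows. Depleted windows, at 1/1.5 of the input or less, made up 8.72% of chromosome 10 and 7.50% of chromosome 12 for the same mean, against 13% of all autosomal windows. In each single library chromosome 12 had the smallest share of depleted windows among the 20 autosomes and chromosome 10 the next smallest. None of these values was taken at equal input, and these chromosomes had the most input tags per window of all autosomes.

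In windows of 100 kb the enriched shares were 7.32% on chromosome 10 and 7.21% on chromosome 12, averaged over the libraries, and 5.44% on the highest of the other autosomes, chromosome 20. At 2 times the input or more in 10 kb windows they were 3.08% and 3.09%, and 2.45% on chromosome 20. Both chromosomes were above all the others in these counts, which were not made at equal input. They had been chosen by called sites in the same libraries, so this rank describes the choice and is no separate support.

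Enriched windows were shared between libraries in part. On chromosome 10, 1092 windows (10.7%) were enriched in 1 library only, and on chromosome 12, 397 (9.63%), against 8.28% on the other autosomes. On chromosome 10, 635 windows (6.201%) were enriched in all 4 libraries, and on chromosome 12, 240 (5.82%), against 3.14% of all autosomal windows and 2.95% of those of the other autosomes. Of the 1367 windows enriched in SS on chromosome 10, 64.1% were enriched in SM, 67.7% in MS and 65.0% in MM. Of the 486 on chromosome 12 the shares were 69.1%, 68.9% and 67.3%, and on the other autosomes 50.7%, 56.9% and 53.1%. Over all pairs of libraries, the shared windows were 53.6% to 70.4% of either list on chromosome 10, 52.9% to 69.6% on chromosome 12 and 47.4% to 64.7% on the other autosomes. Enriched windows were also more frequent among all counted windows of chromosomes 10 and 12. In SM they made up 14.01% and 14.9% there, against 7.325% on the other autosomes, and MS and MM had higher shares there too. A higher overlap on these chromosomes therefore does not by itself show that enrichment was better shared on them. The median of the SS windows in the other libraries ran from 1.63 to 1.695 on chromosome 10 and from 1.66 to 1.72 on chromosome 12. All libraries were divided by the same input, so a window short of input tags by chance would be high in each of them. With the input split between choosing and measuring, the median over both chromosomes went from 1.67 to 1.56.

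**Figure D3:**
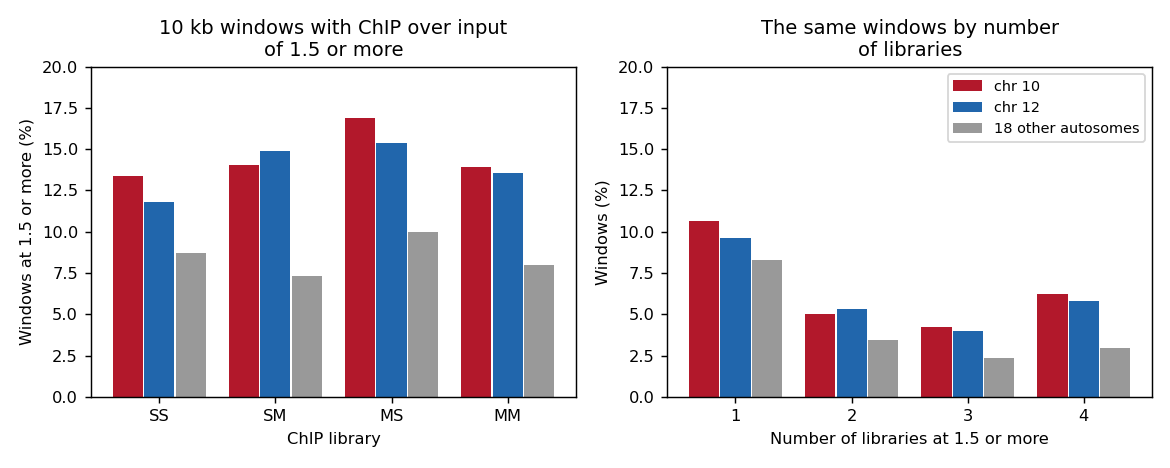
Share of 10 kb windows with at least 20 input tags at 1.5 times the input or more, by library (left) and by the number of libraries in which a window reached that level (right). Chromosome 10 is red, chromosome 12 blue and the 18 other autosomes together grey. Both chromosomes exceed the other autosomes in every library, and 6.201% and 5.824% of their windows reach the level in all 4, against 2.95%.

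Within an enriched window the tags were spread broadly and only mildly concentrated. For windows that averaged 1.5 or more in SS and SM, the 1 kb tile with most tags in those libraries was chosen and then read in the others. It held 18.7% of the window's tags in MS and 18.0% in MM on chromosome 10 (1278 windows), against 12.8% in the input and 10% if tags were even. On chromosome 12 (504 windows) the tile held 18.3% in MS, 18.2% in MM and 13.0% in the input. The other autosomes gave nearly the same values (19.04%, 18.5% and 13.3%), so in these windows the 2 chromosomes did not stand out by sharper peaks.

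Along chromosome 10 H4K5Ac alternated between raised and lowered stretches of a few megabases. In bins of 1 Mb, the mean of the 4 libraries over the input ran from 0.695 to 1.52 with a median of 1.08, and 69 of 111 bins (62.2%) lay above 1, against 41.4% of all autosomal bins. In 61 of the 111 bins all 4 libraries were above 1, as they were in 33.1% of the bins of all autosomes. In 36 of the 111 bins all were below 1, against 1198 of 2360 bins of the other autosomes. The later part was richer. The first 5536 windows averaged 1.046 and the last 5536 averaged 1.153. The order was the same for SS (1.021 and 1.111), SM (1.065 and 1.167), MS (1.044 and 1.174) and MM (1.054 and 1.158). In steps of 10 Mb the chromosome was lowest between 20 and 30 Mb (0.915, with 15 of 959 windows enriched in the mean of the libraries, against 7.12% of all autosomal windows) and highest among the full steps between 90 and 100 Mb (1.20, 164 of 914 windows), followed by 60 to 70 Mb (1.19, 154 of 873 windows).

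The most acetylated bin of chromosome 10 was chr10:86000001-87000000, at 1.457 times the input for SS, 1.556 for SM, 1.570 for MS and 1.492 for MM. It rested on 6669, 10364, 4854 and 7329 tags in these libraries and 9451 in the input. Next came chr10:62000001-63000000, with 1.419, 1.451, 1.539 and 1.454 in the same order, and chr10:46000001-47000000, with 1.336, 1.468, 1.418 and 1.404. The bin from 86 Mb was high over its whole length. Each of its 10 steps of 100 kb had a mean over the libraries between 1.19 and 1.83, 7 of them at 1.5 or more, and 22 of its 10 kb windows were enriched in all 4 libraries.

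The least acetylated bins of chromosome 10 were chr10:44000001-45000000 (SS 0.711, SM 0.682, MS 0.626, MM 0.762), chr10:81000001-82000000 (mean 0.727) and chr10:80000001-81000000 (mean 0.741). The bin from 44 Mb stayed low in each 100 kb step, between 0.585 and 0.781, and none of its windows was enriched in all 4 libraries. It also held fewer input tags than the highest bin, 5639 against 9451. High and low bins lay close to each other, and the lowest bin was only 1 Mb from the third highest.

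Neighbouring bins mostly differed little, and the median size of a step was 0.107 over 110 steps. The largest rise between neighbouring bins was at 62 Mb, where the mean went from 0.924 to 1.47 and did so in every library (SS 0.902 to 1.419, SM 0.938 to 1.451, MS 0.920 to 1.539, MM 0.935 to 1.454). The largest fall was at 88 Mb, from 1.34 to 0.825. The rise at 62 Mb opened a stretch of 7 bins, up to 69 Mb, that lay above 1 in all 4 libraries and averaged 1.261 for SS, 1.280 for SM, 1.333 for MS and 1.280 for MM. A stretch of the same length ran from 71 to 78 Mb, with averages of 1.165 to 1.189. The longest low stretch was 6 bins from 22 to 28 Mb, at 0.882 for SS, 0.780 for SM, 0.830 for MS and 0.811 for MM, followed by 5 bins from 49 to 54 Mb.

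Chromosome 12 was more even. Its 45 bins with enough covered windows (of 47) ran from 0.706 to 1.34 with a median of 1.11 and an SD over bins of 0.160, against 0.195 on chromosome 10. Of these, 35 (77.8%) lay above 1, where the share over all autosomes was 41.4%, and in 29 all 4 libraries did (33.1% over all autosomes). The first and second parts by window number were alike, 1.11 and 1.10. The highest bins were chr12:33000001-34000000 (SS 1.320, SM 1.359, MS 1.357, MM 1.337), chr12:32000001-33000000 (1.246, 1.424, 1.364 and 1.309) and chr12:35000001-36000000 (1.257, 1.315, 1.372 and 1.306). They belonged to 1 stretch of 6 bins from 32 to 38 Mb that was above 1 in all 4 libraries, at 1.215 for SS, 1.314 for SM, 1.304 for MS and 1.274 for MM. At its start the mean rose from 0.842 to 1.34, the largest rise on the chromosome.

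Unlike the bin from 86 Mb of chromosome 10, the highest bin of chromosome 12 was uneven inside. Its 100 kb steps had means from 0.957 to 1.73, 2 of 10 at 1.5 or more, and both of its outermost steps lay below 1. It held 17 windows enriched in all 4 libraries, the most of any bin of chromosome 12, while on chromosome 10 the bin from 46 Mb held the most, 27. The lowest bins were chr12:18000001-19000000 (mean 0.706), chr12:1-1000000 (0.712) and chr12:13000001-14000000 (0.796). The first of these held 2650 input tags, had 2 steps of 100 kb with none, and lies next to the 2 bins that were too thinly covered to be used, so it rests on the fewest input tags of the map.

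**Figure D4:**
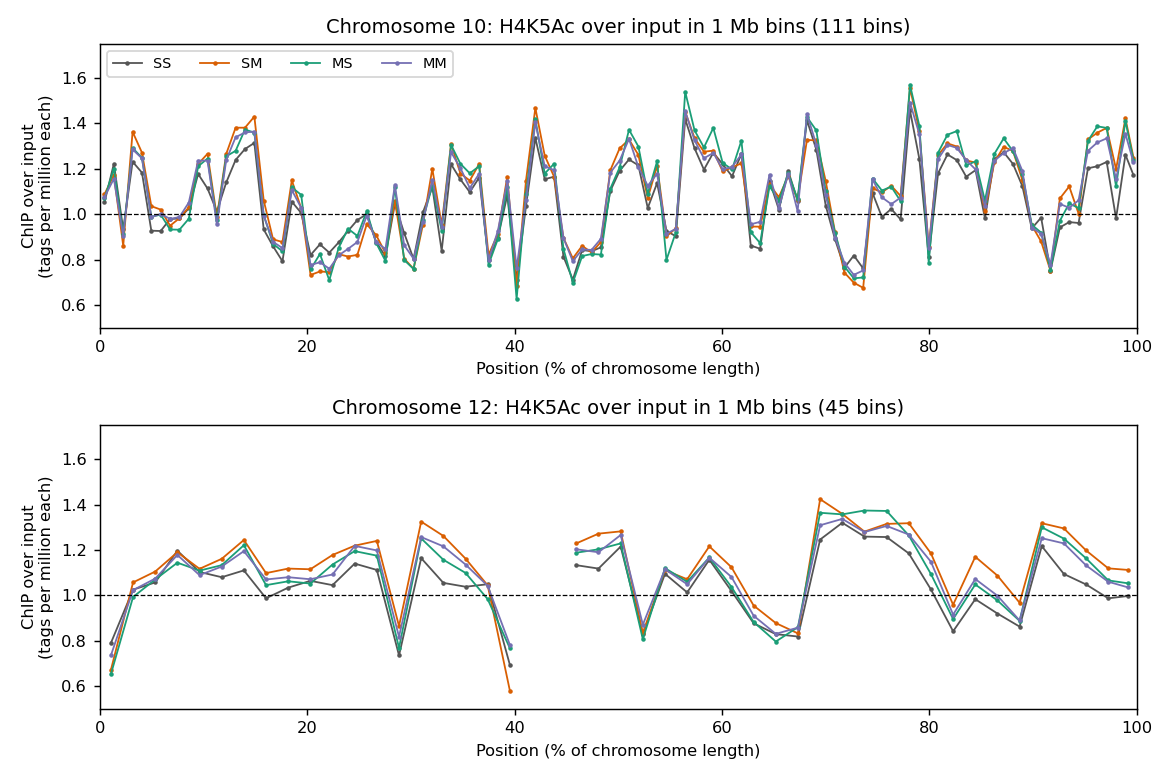
H4K5Ac over input in 1 Mb bins along chromosomes 10 and 12 for the 4 ChIP libraries, by position in percent of the chromosome's length. The dashed line marks equality with the input, and the break in chromosome 12 marks 2 bins without enough covered windows. The 4 libraries rise and fall together, with the highest bin of chromosome 10 at 1.52 and that of chromosome 12 at 1.34 in their mean.

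The windows enriched in all 4 libraries were gathered in part of each chromosome. On chromosome 10, 20 of 111 bins held 50% of the 635 windows and 30 bins held none. On chromosome 12, 10 of 47 bins held 50% of the 240 windows and 7 held none. These counts were not made for the other autosomes, so they show no trait particular to chromosomes 10 and 12. For the mean of the libraries, runs of neighbouring enriched windows numbered 6.98 per Mb on chromosome 10 and 7.07 on chromosome 12, and from 3.35 to 5.66 per Mb on the other autosomes. Runs of 3 or more windows numbered 0.966 and 0.876 per Mb, and 0.410 on the median and 0.760 on the highest of the other autosomes. More windows were enriched in that mean on chromosomes 10 (12.5%) and 12 (12.3%) than on the other autosomes (6.77%). Runs per Mb are therefore no separate trait, and they were not counted at equal input. Of the enriched windows, 36.6% on chromosome 10 and 32.4% on chromosome 12 lay in runs of 3 or more, against a median of 27.5% on the other autosomes and 37.9% on chromosome 20. The mean run was 1.66 windows long on chromosome 10 and 1.53 on chromosome 12, where the other autosomes had a median of 1.46 and reached 1.64 (chromosome 20).

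The longest run of chromosome 10 was 15 windows, chr10:14790001-14940000, at 1.909 times the input for SS, 2.073 for SM, 1.896 for MS and 2.036 for MM over 1774 input tags. It was not the longest of the autosomes, since a run on chromosome 6 had 19 windows. Chromosome 12 had 3 runs of 9 windows, chr12:14300001-14390000 (SS 1.854, SM 1.839, MS 1.910, MM 1.912), chr12:32560001-32650000 (1.731, 1.845, 1.837 and 1.712) and chr12:35070001-35160000 (1.788, 1.719, 1.891 and 1.822). The last pair lie in the stretch from 32 to 38 Mb and the other lies outside it.

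Single windows reached about 3 times the input. The highest of chromosome 10 was chr10:38930001-38940000, with 180 tags for SS, 239 for SM, 126 for MS and 184 for MM against 108 in the input, which is 3.441, 3.141, 3.567 and 3.279 times the input. It was followed by chr10:98290001-98300000 (mean 3.18 ± 0.31, SD over the 4 libraries) and chr10:109650001-109660000 (2.99 ± 0.13). On chromosome 12 they were chr12:36500001-36510000 (3.11 ± 0.13), chr12:35260001-35270000 (3.07 ± 0.65) and chr12:12130001-12140000 (3.04 ± 0.21). None of the 3 windows of chromosome 10 lay in one of its 3 highest 1 Mb bins. The window at 35260001 had only 21 input tags, just past the minimum of 20, and 27 to 37 ChIP tags, of which 93.9% lay in 3 of its 10 tiles. The other 5 windows had 86 to 108 input tags, and their 3 fullest tiles held between 39.8% and 53.8% of the ChIP tags.

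The map was shared by the libraries. Over the 111 bins of chromosome 10, Pearson's r between ChIP over input of any 2 libraries was 0.943 to 0.984 and Spearman's rho 0.948 to 0.988, and over the 45 bins of chromosome 12 they were 0.920 to 0.984 and 0.884 to 0.976. These describe bins that share 1 input library and are not independent of each other. The 28 bins of chromosome 10 that were highest in SS had 1.172 to 1.556 for SM, 1.200 to 1.570 for MS and 1.156 to 1.492 for MM, and 24, 26 and 24 of them were also among the 28 highest of those libraries. On chromosome 12, 8, 9 and 10 of 12 were. ChIP over input also followed the input tags of the bin, with r of 0.476 for SS, 0.660 for SM, 0.579 for MS and 0.610 for MM on chromosome 10 and of 0.421, 0.671, 0.532 and 0.544 on chromosome 12. The input is the denominator of one and the whole of the other, and what part density itself has in the map was not tested.

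Neighbouring windows resembled each other less with distance. On chromosome 10, r between windows was 0.573 at 10 kb, 0.355 at 100 kb, 0.124 at 1 Mb and -0.028 at 5 Mb, over 9036 to 9980 pairs. On chromosome 12 it was 0.505, 0.266, 0.059 and 0.017, over 3243 to 3991 pairs.

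METH was compared with saline through the libraries. Relative to the other autosomes, tags of chromosome 10 were 1.049 times as many in SM as in SS (1.045 to 1.053), 1.043 times in MS (1.039 to 1.048) and 1.039 times in MM (1.035 to 1.043). Chromosome 12 had larger values, of which SM had 1.095 (1.089 to 1.101), MS 1.052 (1.045 to 1.059) and MM 1.057 (1.051 to 1.063). Scaled to 1000000 tags per library, these were 53010 tags on chromosome 10 in SS against 55491 in SM, 55174 in MS and 54984 in MM, and 22833 on chromosome 12 in SS against 24938, 23957 and 24091. The 3 comparisons share SS and are not independent. The METH challenge in pretreated animals, MM against MS, gave 0.996 (0.992 to 1.000) on chromosome 10 and 1.005 (0.998 to 1.012) on chromosome 12, with intervals that reach 1. The other autosomes went up to 1.054 for SM over SS (chromosome 19), 1.021 for MS over SS (chromosome 8), 1.033 for MM over SS (chromosome 19) and 1.015 for MM over MS (chromosome 15), and chromosome 10 was below chromosome 19 in SM over SS.

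These differences were smaller at equal input. At matched input in 10 kb windows, chromosome 10 had 1.015 for SM over SS, 1.021 for MS over SS and 1.016 for MM over SS, and chromosome 12 had 1.038, 1.017 and 1.021. In windows of 100 kb they were 1.008, 1.015 and 1.012 on chromosome 10, and 1.033, 1.012 and 1.018 on chromosome 12. In windows of 1 Mb they were 1.002, 1.011 and 1.007 on chromosome 10, and 1.029, 1.010 and 1.014 on chromosome 12. The value of chromosome 12 for SM over SS stayed the highest of the 20 autosomes at each window size, with chromosome 19 next at 1.019 in 100 kb windows. For SM over SS on chromosome 10, 5 of the 18 other autosomes had a higher value in 100 kb windows and 7 in 1 Mb windows. For MS over SS chromosome 10 was the highest autosome in windows of 10 kb, 100 kb and 1 Mb, and chromosome 7 followed the pair at 1.009 in the wider ones. For MM over SS chromosome 12 was the highest at each of these sizes. Matched values had no counting interval, so ranks as close as 1.011, 1.010 and 1.009 in 1 Mb windows are not settled.

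The ratio of SM to SS rose with input density on both chromosomes and on the other autosomes. In 4 classes of windows from least to most input, it went from 0.934 through 0.947 and 1.020 to 1.101 on chromosome 10, from 0.937 to 1.118 on chromosome 12 and from 0.882 to 1.085 on the other autosomes. On chromosome 10, MS over SS went from 0.955 to 1.078 and MM over SS reached 1.071 in the class with most input, while MM over MS was 0.995 in the first class and 0.994 in the last. On chromosome 12, MM over MS was 1.038 (1.001 to 1.077) in the first class and 1.003 (0.995 to 1.011) in the last. Across 1 Mb bins, r between SM over SS and input tags was 0.722 on chromosome 10 (111 bins) and 0.802 on chromosome 12 (45 bins). The role of this dependence in the differences between groups was not tested, and it cannot be told apart from treatment with 1 library per group.

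Some ratios between libraries also differed by the acetylation level of the window, and input density moved with that level. Depleted windows of chromosome 10 held 73.3 input tags and enriched ones 96.9 when classed by SM and MM, and the part of input in the values below was not tested. With windows classed by MS and MM, which enter neither side, SM over SS on chromosome 10 was 1.027 in depleted windows, 1.060 and 1.051 in the classes between, and 1.038 in windows enriched 1.5 times or more. On chromosome 12 the same classes had 1.082, 1.118, 1.105 and 1.048, and on the other autosomes 0.965, 0.998, 1.015 and 1.002. With windows classed by SM and MS, MM over SS on chromosome 10 was 1.039 (1.023 to 1.057) in depleted and 1.036 (1.027 to 1.044) in enriched windows, with overlapping intervals. On chromosome 12 it was 1.059 (1.030 to 1.089) and 1.034 (1.021 to 1.048), and on the other autosomes 0.971 (0.968 to 0.974) and 1.019 (1.017 to 1.022). With windows classed by SM and MM, MS over SS went from 0.958 in depleted to 1.077 in enriched windows on chromosome 10, from 0.975 to 1.083 on chromosome 12 and from 0.930 to 1.051 on the other autosomes, where the interval of the depleted windows of chromosome 12 spanned 1 (0.937 to 1.013). With windows classed by SS and SM, MM over MS on chromosome 10 fell from 1.081 in depleted to 0.962 in enriched windows, on chromosome 12 from 1.084 to 0.955 and on the other autosomes from 1.044 to 0.970. Enriched windows thus held fewer scaled tags in MM than in MS and depleted windows more, on these chromosomes as on the rest.

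Bin by bin and relative to the other autosomes, SM was above SS in 84 of 111 bins of chromosome 10 (75.7%, against 44.4% of bins over all autosomes) and in 41 of 45 of chromosome 12 (91.1%). MS was above SS in 81 and 38 bins (all autosomes 46.5%), and MM above SS in 89 and 40 (46.9%). MM was above MS in 51 and 27 bins, or 45.9% and 60.0%, against 50.6%. None of these counts was made at equal input, and neighbouring bins are not independent of each other. At matched input in 1 Mb windows, SM over SS was 1.002 on chromosome 10, where 7 other autosomes were higher. On chromosome 12 it was 1.029, the highest of the autosomes. The largest SM over SS on chromosome 10 was at chr10:108000001-109000000, 1.224 (1.182 to 1.267), where SM stood at 1.20 and SS at 0.981 times the input over 10460 input tags. On chromosome 12 it was at chr12:15000001-16000000, 1.199 (1.160 to 1.239), with SM at 1.26 and SS at 1.06 over 11073 input tags. Both bins are rich in input and neither was among the 3 most acetylated, and the smallest ratios were in bins poor in input, 0.844 at chr10:27000001-28000000 (5750 input tags) and 0.838 at chr12:18000001-19000000 (2650 input tags).

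**Figure D5:**
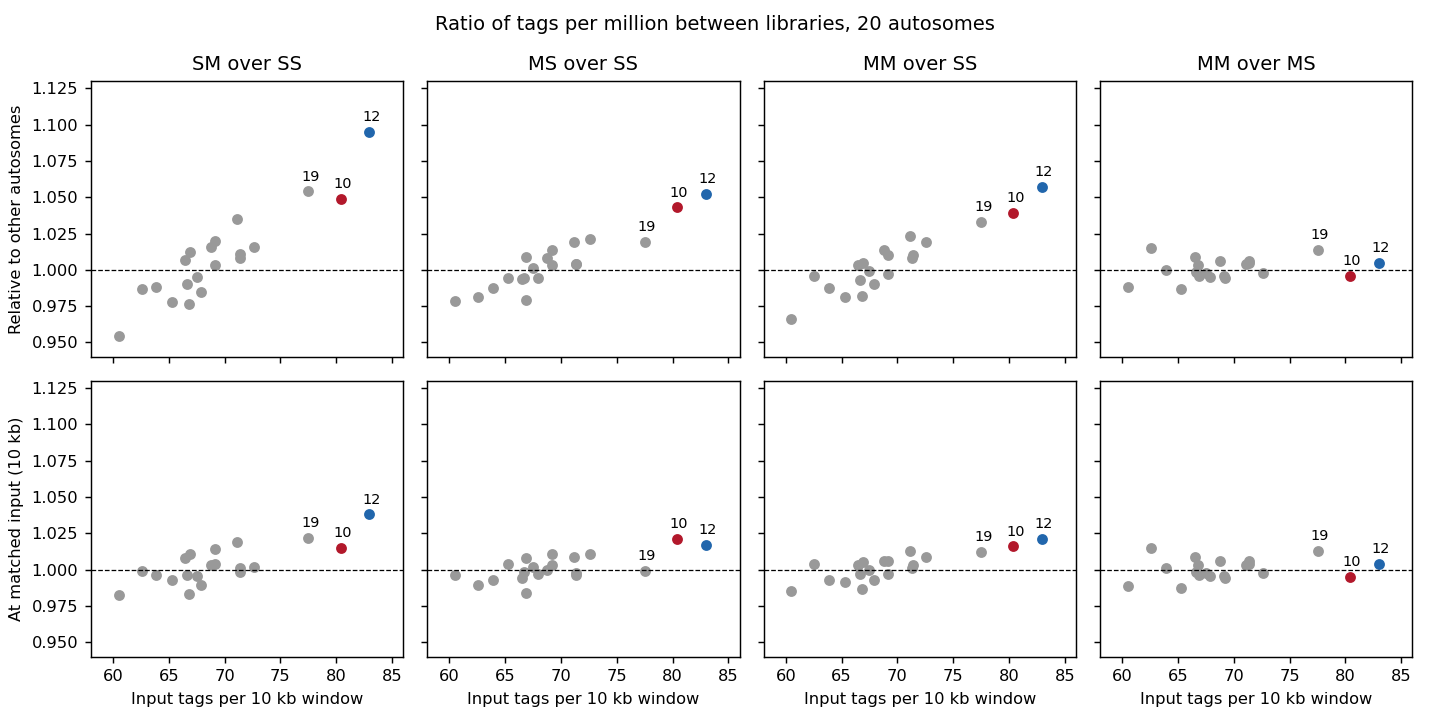
Ratio of scaled tags between libraries for each of the 20 autosomes against its input tags per 10 kb window, relative to the other autosomes (top) and at matched input in 10 kb windows (bottom). Chromosome 10 is red, chromosome 12 blue and the others grey. In the first 3 columns of the top row the ratio rises with input and chromosome 12 is highest, at 1.095 for SM over SS, while MM over MS shows no such slope.

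The 2 chromosomes differed from each other most in SM over SS, where chromosome 12 exceeded chromosome 10 by 1.043 times (1.038 to 1.049). For MS over SS the quotient was 1.008 (1.001 to 1.015), for MM over SS 1.017 (1.011 to 1.023) and for MM over MS 1.009 (1.002 to 1.016). At matched input the order turned for MS over SS, where chromosome 10 stood slightly above chromosome 12 in windows of 10 kb (1.021 and 1.017), 100 kb (1.015 and 1.012) and 1 Mb (1.011 and 1.010). These matched values have no interval, and they lie closer together than the unmatched interval is wide, so their order is not settled.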

How the data were processed

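H4K5Ac ChIP-Seq of dorsal striatum was analysed in 4 pooled ChIP libraries and 1 input library. Alignment by the authors used 41 bases from the start of every read and Gerald (version not given in the sources used here) on the rat genome, rn4 according to the submitters' processing notes. The authors deposited raw counts, the number of tags in the 1 kb around every 100 bp step, without normalization or input correction. DNA had been amplified for 18 PCR cycles and selected at 250 to 300 bases, and duplicates cannot be recognised in these files.

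Counts at non-overlapping steps of 1 kb were summed to 10 kb windows and scaled to 1000000 tags per library. The members and lists were chosen with earlier results of these data known, and the windows, bins and runs named are the 3 highest or lowest by a fixed rule or the longest. Ratios have exact conditional binomial intervals at 95% with the tags of the other autosomes taken as fixed. With 1 library per group no p-value was computed. At matched input, expected tags were the mean of windows of the other autosomes in the same of 20 input classes. On simulated libraries this form overstated chromosome 12, the only chromosome tried and the one with most input tags per window. Forms with the input split in 2 parts and with 1 Mb windows were therefore added after seeing the data. For differences between groups, 100 kb and 1 Mb windows were added likewise. A form without the 3 highest 1 Mb bins was also added after seeing the data. Bins needed 50 windows with 20 input tags. Other alternatives were another scaling, stricter input minima, removal of windows over 3 times the median input, thinning to MS, medians, other folds and other widths. Python 3.11.15, NumPy 2.4.6, SciPy 1.17.1, pandas 2.3.3 and matplotlib 3.10.9 were used.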

Additional observations from a re-analysis of the deposited data

Results flagged for a closer look

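On chromosome 10 the ratio for the METH challenge was above 1 in saline-pretreated and slightly below 1 in METH-pretreated animals. Relative to the other autosomes, SM over SS was 1.049 and MM over MS was 0.9959, and at matched input in 10 kb windows they were 1.015 and 0.9951. The difference between the pretreatments was not tested, because each group was 1 library. The counting interval of MM over MS, 0.992 to 1.000, reached 1, and in 100 kb windows at matched input the pair was 1.008 and 0.996, and in 1 Mb windows 1.002 and 0.996. Relative to the other autosomes, 13 of 18 had a higher MM over MS than chromosome 10.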

How the results depend on the processing

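No paired analysis was possible because each group was 1 library. Among the means over libraries and the ratios between libraries, none whose interval excluded 1 changed direction under the alternatives run. Counting each result once for every alternative, 102 recomputed values moved by less than the spread over libraries or their counting interval and 41 by more. Some of the 102 could not move. The other scaling cancels out of the matched values and of all ratios relative to the other autosomes, so the count overstates stability. In SS alone, chromosome 12 at matched input went from 1.030 to 0.993 in 100 kb windows. Leaving out 1 library at a time kept chromosome 10 between 1.100 and 1.118 and chromosome 12 between 1.096 and 1.129 over input, between 1.065 and 1.072 and between 1.043 and 1.056 at matched input, and between 13.8% and 14.9% and between 13.4% and 14.6% for enriched windows. At matched input, chromosomes 10 and 12 had 1.034 and 1.009 in 100 kb windows, 1.031 and 1.017 in 1 Mb windows, and 1.057 and 1.033 without their 3 highest bins, and chromosome 10 had 1.057 with the input split. Enriched shares were 21.6% and 21.7% when libraries were scaled by the windows with less input than the median, 3.08% and 3.09% at a ratio of 2 or more and 7.32% and 7.21% in 100 kb windows. For SM, MS and MM over SS, matching gave 1.015, 1.021 and 1.016 on chromosome 10 and 1.038, 1.017 and 1.021 on chromosome 12, and matching in 100 kb windows 1.008, 1.015 and 1.012, and 1.033, 1.012 and 1.018, and in 1 Mb windows 1.002, 1.011 and 1.007, and 1.029, 1.010 and 1.014. Medians over windows gave 1.059, 1.049 and 1.048 on chromosome 10 and, for SM and MM, 1.111 and 1.069 on chromosome 12. SM over SS on chromosome 10 was 1.045 in windows with 40 or more input tags and 1.045 after thinning to MS. Windows enriched in SS had 1.564 in the other libraries with the input split. The highest 28 bins (chromosome 10) and 12 bins (chromosome 12) of SS exceeded the rest 1.27 times in the other libraries, 1.332 times in 500 kb bins and 1.228 times in 2 Mb bins. The cause of these changes was not tested.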
